A study of Mus musculus with 12 samples.

Results

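The 10 genes described here carry, restrain or report Wnt signalling in the developing mouse auditory nerve. They are the ligand Wnt5a, the receptor Fzd1, the R-spondin receptor Lgr5, the nuclear partner Lef1, the feedback target Axin2, and the secreted proteins Sfrp1, Sfrp2, Frzb, Dkk3 and Wif1. They were taken by name from the 18193 genes that have a probe set of their own on the array, and each is represented by its probe set with the highest mean over the 12 arrays. All 10 were measured, and at no stage did a member lie in the lowest 25% of values on both arrays.

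Tissue came from CBA/CaJ mice of both sexes at postnatal days P0, P3, P7, P10, P14 and P21, with 2 mice at each stage and no other treatment or genotype. Both cochleas of a mouse were joined in 1 sample, from which 100 ng of total RNA was hybridised to an Affymetrix 3' expression array. The bony shell, the lateral wall and most of the sensory epithelium had been dissected off, so that each sample is the modiolus, the core of the cochlea around which the nerve runs, and not isolated nerve. The deposited values are log2 values from RMA, a method that corrects, equalises and summarises the probes of a set, and a difference of 1 is a 2-fold change.

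Wnt ligands are lipid-bearing secreted proteins that bind Frizzled receptors. In the canonical branch this binding spares beta-catenin from the destruction complex, which Axin proteins scaffold, and beta-catenin then acts on genes through the DNA-binding factors Lef1 and the Tcf proteins. Secreted Frizzled-related proteins (Sfrp1, Sfrp2 and Frzb) and Wif1 bind Wnts outside the cell, and Lgr5 with its R-spondin ligands raises the amount of Frizzled at the surface. In the cochlea the pathway is known for its part in the division of sensory progenitors, and Lgr5 marks a subset of supporting cells there.

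The samples carried the markers of their labelled tissue. Markers were summed on the linear scale, where the brightest ones weigh most. The 7 measured Schwann cell markers reached 60869 and 60988 at P21, against 17824 to 20702 at P0. The 10 spiral ganglion neuron markers reached 49730 to 64713 at P21, against 19486 to 21238 at P0. By the rule for calls given below, 4 of these Schwann cell markers were higher and 2 lower at P21 against P0. Of the neuron markers 5 were higher and 1 lower, where 12.4% of all probe sets were higher and 14.9% lower. Stage means of Sox10, a Schwann cell marker, were 11.04 at P0 and 10.97 at P21. Markers of other cells were present too. The 7 oligodendrocyte markers summed to 14048 to 16779 at P21 and 1962 to 2130 at P0, and all 7 were called higher at P21. For bone cells 6 markers summed to 23493 to 27712 at P21 and 779 to 1010 at P0. The 10 markers of sensory and supporting cells summed to 14861 to 20010 at P21 and 28742 to 30869 at P0. Array medians lay between 6.70 and 6.79 and replicates correlated at 0.991 to 0.9962 across probe sets. The 3' minus 5' difference of Actb, a measure of RNA and cRNA integrity, was 2.32 and 2.03 on the P21 arrays and 0.81 to 1.41 on the other 10 arrays. Whether either the other cells or RNA integrity had a part in any difference below was not tested, and in such bulk tissue fewer cells of a type and less RNA per cell cannot be told apart.

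The 250 bases before the start of transcription are shown for 4 members, because the core letters bound by Lef1 and Tcf factors, CTTTGA on either strand, can be looked for there. The windows come from RefSeq on build GRCm38.p6, which held windows for 6 members. Each runs 5′ to 3′ on the gene's own strand, and capitals mark CTTTGA or its reverse complement TCAAAG. Axin2 and Lef1 are shown as a feedback target and a DNA-binding partner that fell, Fzd1 as a receptor that fell and Frzb as a member that was higher in midcourse. Of the Lef1 windows, the one shown is the only one with a match.
Axin2, chr11:108920099-108920348, plus strand: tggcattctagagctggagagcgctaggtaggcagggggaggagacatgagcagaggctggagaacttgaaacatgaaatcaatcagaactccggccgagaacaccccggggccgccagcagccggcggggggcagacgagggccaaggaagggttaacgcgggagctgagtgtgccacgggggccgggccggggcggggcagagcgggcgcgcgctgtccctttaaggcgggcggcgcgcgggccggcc
Lef1, an internal start, chr3:131156044-131156293, plus strand: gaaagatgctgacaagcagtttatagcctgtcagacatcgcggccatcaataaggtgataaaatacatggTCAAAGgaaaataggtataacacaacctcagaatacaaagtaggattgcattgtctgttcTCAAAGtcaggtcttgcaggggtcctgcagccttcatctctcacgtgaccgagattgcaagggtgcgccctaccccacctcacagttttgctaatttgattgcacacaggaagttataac
Fzd1, chr5:4758217-4758466, minus strand: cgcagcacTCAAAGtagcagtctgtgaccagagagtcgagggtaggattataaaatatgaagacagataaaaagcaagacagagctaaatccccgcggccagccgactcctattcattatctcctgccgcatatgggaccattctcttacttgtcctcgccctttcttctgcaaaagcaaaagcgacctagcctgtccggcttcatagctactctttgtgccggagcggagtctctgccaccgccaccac
Frzb, chr2:80447397-80447646, minus strand: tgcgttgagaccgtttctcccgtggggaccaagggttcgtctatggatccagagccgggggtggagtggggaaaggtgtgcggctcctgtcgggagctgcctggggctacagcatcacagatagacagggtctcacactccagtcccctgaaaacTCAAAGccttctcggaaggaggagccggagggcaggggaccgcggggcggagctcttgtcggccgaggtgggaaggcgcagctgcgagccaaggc

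The Axin2 window held no CTTTGA and 24 CpG dinucleotides, where the median of all windows is 6. The internal Lef1 window held the letters at 180 and 120 bases before the start, the Fzd1 window at 242 bases and the Frzb window at 95 bases. The windows at the other 3 Lef1 starts and those of Wif1 and Sfrp2 held none, so that 3 of 9 member windows had a match. The windows at Lef1 starts 1 and 2 overlap, so the 9 are not separate stretches. The letters stood in 13.8% of the 32851 windows of this length in the mouse table. The longer forms CTTTGAA and CTTTGAT, which contain CTTTGA, stood in 4.5% and 3.2% of them and in 0 member windows. A match of letters is a description and not a bound site.

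Over the 6 stages 9 of the 10 members changed, with Wnt5a as the exception (limma moderated F-test, adjusted p under 0.05 and the highest stage mean over 1.5 times the lowest), where 38.3% of all probe sets met the same rule. Here and elsewhere such shares are over all tested probe sets, dim ones and those without a symbol included. Each member or listed gene is counted on its probe set with the highest mean, so count and share are not measured alike. The stages were then compared in pairs with limma, with p-values adjusted by Benjamini-Hochberg over 45037 probe sets, and a difference is called here at an adjusted p under 0.05 and a fold over 1.5. At P3 against P0, 2 members were lower (Axin2 and Lgr5) and 0 higher, where 2.8% of probe sets were called lower and 0.981% higher. In limma 4 members had an unadjusted p under 0.05 there. For that looser rule the share of all probe sets was not counted, here or below. At P7 against P0, 5 members were lower and 1 higher, with 5.68% of probe sets lower and 5.44% higher. At P10 the split was 7 lower and 2 higher, with 10.1% and 9.24% of probe sets. At P14 it was 7 lower and 1 higher, with 11.3% and 10.2%, and at P21 it was 8 lower and 0 higher, with 14.9% and 12.4%. The median member difference from P0 was -0.20, -0.79, -1.29, -1.23 and -1.04 on the log2 scale at P3, P7, P10, P14 and P21, while the median of all probe sets stayed between -0.01 and 0.04. All 5 comparisons share the P0 arrays, and without P0 replicate 2 the count at P3 was 0.

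**Figure D1:**
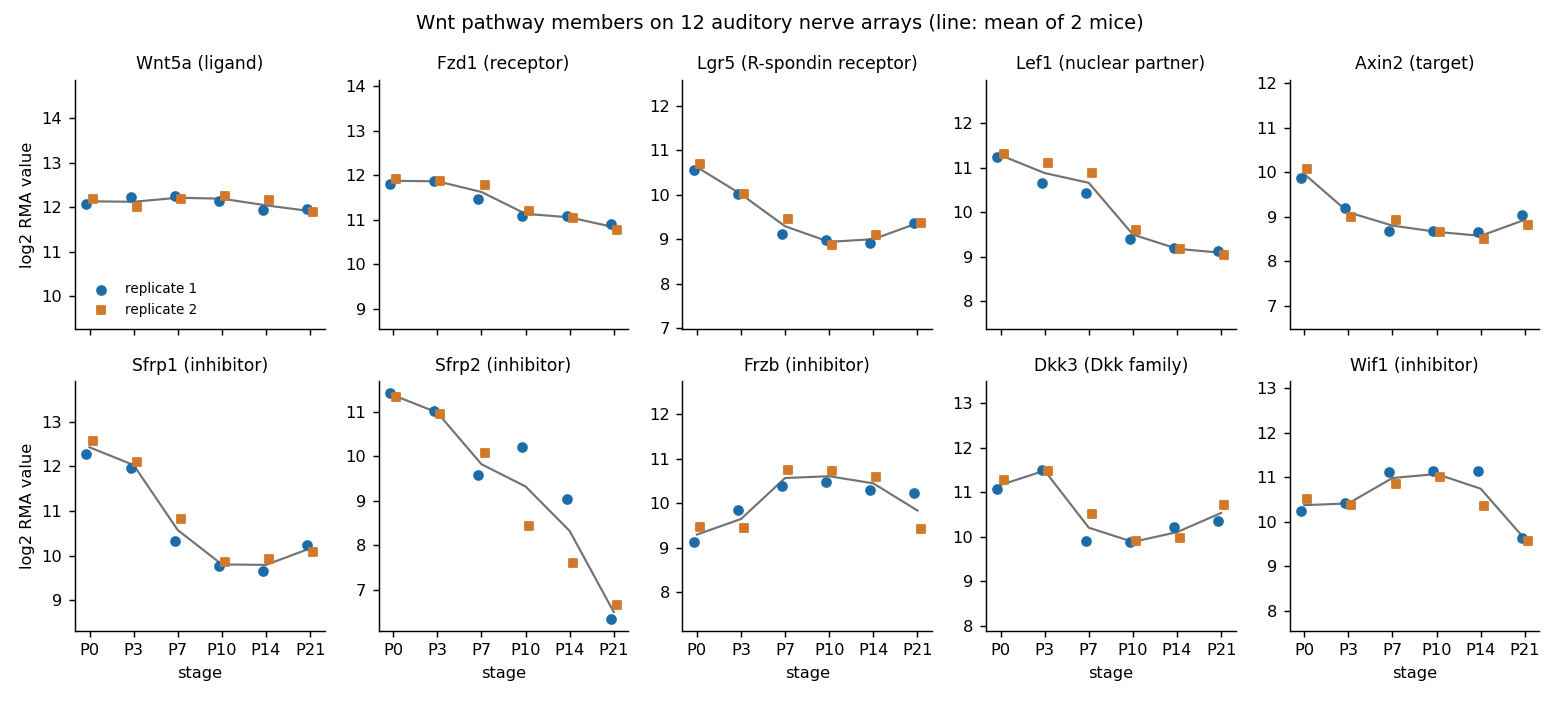
Log2 RMA value (y axis, the same span in each panel) of the 10 members at the 6 stages (x axis), with a point for each of the 2 mice and a line through their means. Sfrp1, Sfrp2, Lef1, Axin2, Lgr5 and Fzd1 lie highest at P0, Frzb and Wif1 lie highest at P10, and Wnt5a spans 0.30 from its highest to its lowest stage mean.

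Each stage from P7 on was also compared with the one before it. At P7 against P3, 3 members were lower (Sfrp1, Dkk3 and Lgr5) and 1 higher (Frzb), where 3.98% of probe sets were lower and 6% higher. At P10 against P7, Lef1 alone was called, as lower, with 0.127% of probe sets lower and 0.104% higher. At P14 against P10, limma called 0 members and 0% of probe sets in either direction, 0 members had an unadjusted p under 0.05, and the t-test named in the methods called 0 as well. At P21 against P14, Wif1 alone was called, as lower, with 1.73% of probe sets lower and 0.722% higher. There 6 members had an unadjusted p under 0.05 in limma, without a share of all probe sets to set beside it. The call at P10 against P7 was lost without any 1 of 7 arrays and that at P21 against P14 without any 1 of 3 arrays, as given with those genes. Without P7 replicate 1, 2 members were called at P7 against P3.

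**Figure D2:**
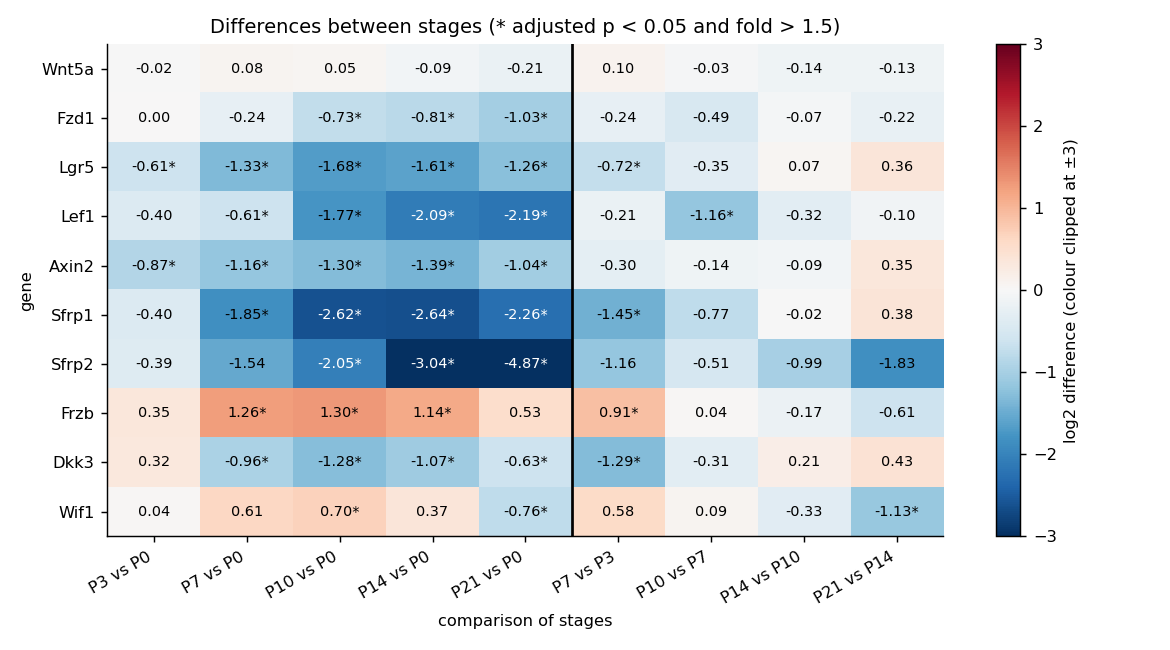
Log2 difference of the later from the earlier stage (columns) for each member (rows), with blue for lower and red for higher and an asterisk where adjusted p was under 0.05 and the fold over 1.5. At P10 against P0, 7 rows are blue, Frzb and Wif1 are red, and the column P14 against P10 has no asterisk.

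Wnt5a, which signals mainly through branches that do not use beta-catenin, was called in no comparison. Its arrays (probe set 1436791_at) read 12.07 and 12.19 at P0, 12.23 and 12.00 at P3, 12.24 and 12.19 at P7, 12.13 and 12.24 at P10, 11.94 and 12.15 at P14, and 11.95 and 11.88 at P21. All neighbouring stages in the order of its means overlapped. At P21 against P0 the difference was -0.21 ± 0.12 (SE), with an adjusted p of 0.173, and the F-test gave an adjusted p of 0.301. Its dimmer probe sets moved more: 1448818_at differed by -0.83 (adjusted p = 0.0569) and 1437673_at by -0.49 (adjusted p = 0.0238, a fold of 1.4) at P21 against P0. Both passed the F-test, with adjusted p-values of 0.044 and 0.0258, and both were highest at P10 and lowest at P21. The fourth probe set, 1456976_at, gave an adjusted p of 0.39 in that test.

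Fzd1, a Frizzled receptor that binds Wnts at the cell surface, was lower from P10 on. Its arrays (1437284_at) read 11.81 and 11.92 at P0, 11.86 and 11.86 at P3, 11.47 and 11.77 at P7, 11.07 and 11.19 at P10, 11.08 and 11.03 at P14, and 10.90 and 10.76 at P21. P0 and P3 overlapped, every later stage lay below them, and P21 lay below all other stages. The differences from P0 were -0.73 ± 0.12 (SE) at P10 (1.66-fold lower, adjusted p = 0.0012), -0.81 at P14 (1.75-fold, adjusted p = 0.00058) and -1.03 at P21 (2.05-fold, adjusted p = 9.01e-05). A second probe set of low mean, 5.17, was not called.

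Lgr5 was, with Axin2, already lower at P3. Its arrays (1450988_at) read 10.56 and 10.68 at P0, 10.01 and 10.01 at P3, 9.12 and 9.46 at P7, 8.99 and 8.88 at P10, 8.92 and 9.09 at P14, and 9.37 and 9.36 at P21. P0 stood alone at the top and P3 alone below it, P21 overlapped P7, and P14 overlapped P10 at the bottom. At P3 against P0 it was 1.53-fold lower (-0.61, adjusted p = 0.0224). At P7 it was 2.51-fold lower (-1.33, adjusted p = 0.000108) and at P10 3.22-fold lower (-1.68 ± 0.13 SE, adjusted p = 1.25e-05). The difference was smaller again at P21, 2.39-fold (-1.26, adjusted p = 3.86e-05), but the change at P21 against P14, 0.36, was not called. The P3 call was lost without either P0 or either P3 array (-0.55 to -0.67, adjusted p 0.0772 to 0.133), and the call at P7 against P3 (1.65-fold lower, adjusted p = 0.00444) was lost without P7 replicate 1, where the difference of -0.55 fell short of the fold. The second probe set, with a mean of 4.88, was not called.

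Of the 10 sensory and supporting cell markers, 5 were lower and 0 higher at P10 against P0 (all probe sets 10.1% and 9.24%), and 4 were lower and 2 higher at P21 (all probe sets 14.9% and 12.4%). Their sum was 18641 to 19455 at P10 against 28742 to 30869 at P0. The bright marker Tecta weighs heavily in this sum, with stage means of 13.13 at P0 and 6.6 at P10. Epyc, the brightest of the list, stood at 13.58 and 13.79, and Fgfr3 at 10.14 and 10.5. At P3, where Lgr5 was already lower, the sum was 28378 to 30009 and 1 marker was lower (all probe sets 2.8%). Of the 10, 1 lay in the lowest 25% of values on both arrays at each of P0, P3, P10 and P21. The part of these cells in the fall of Lgr5 was not tested.

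Lef1, which carries beta-catenin to DNA, had its largest step between P7 and P10. Its arrays (1454734_at) read 11.25 and 11.30 at P0, 10.65 and 11.10 at P3, 10.44 and 10.89 at P7, 9.41 and 9.60 at P10, 9.19 and 9.18 at P14, and 9.12 and 9.05 at P21. P3 and P7 overlapped, and no other neighbouring stages did. It was 3.41-fold lower at P10 (-1.77 ± 0.17 SE, adjusted p = 6.37e-05) and 4.56-fold lower at P21 (-2.19, adjusted p = 9.46e-06). A second probe set, 1421299_a_at, was also lower at P10 (-1.5), P14 (-2.05) and P21 (-2.68), and its -0.53 at P7 was not called. The 2 smaller calls did not last: the 1.53-fold difference at P7 against P0 (-0.61, adjusted p = 0.0363) was lost without either P0 array, P7 replicate 1 or either P14 array (-0.38 to -0.64, adjusted p 0.0514 to 0.287), and the 2.23-fold difference at P10 against P7 (-1.16, adjusted p = 0.0339) was lost without P7 replicate 2 or any array of P0, P10 or P14 (-0.94 to -1.25, adjusted p 0.0543 to 0.439).

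Axin2, a scaffold of the destruction complex and itself a gene that beta-catenin switches on, was lower at every stage after P0. Its arrays (1436845_at) read 9.87 and 10.06 at P0, 9.20 and 9.0 at P3, 8.67 and 8.93 at P7, 8.68 and 8.65 at P10, 8.65 and 8.49 at P14, and 9.03 and 8.82 at P21. Both P0 arrays lay above all other arrays, while the 5 later stages overlapped their neighbours. The largest step was the first, -0.87 ± 0.13 (SE) at P3 against P0 (1.82-fold lower, adjusted p = 0.00712). It was 2.63-fold lower at P14 (-1.39, adjusted p = 4.64e-05) and 2.06-fold lower at P21 (-1.04, adjusted p = 0.00018). The P3 call was lost without P0 replicate 2 (-0.77, adjusted p = 0.0648). A second probe set with a mean of 4.48 was not called.

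The 7 measured dividing cell markers summed to 7253 to 8195 at P0, 2089 to 4832 at P3, 2520 to 2947 at P7, 2298 to 2463 at P10, 1747 to 6281 at P14 and 1197 to 1216 at P21. The higher P14 sum, that of replicate 1, was the highest of any array after P0. Against P0, 1 of the 7 was lower at P3, 1 at P7, 5 at P10, 4 at P14 and 7 at P21, and 0 were higher. The shares of all probe sets called lower at these stages were 2.8%, 5.68%, 10.1%, 11.3% and 14.9%. The part of dividing cells in the falls of Axin2, Lef1 and Lgr5 was not tested.

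Among the secreted members, Sfrp1 and Sfrp2 showed the largest falls. Sfrp1, a Wnt-binding Frizzled-related protein, read (1448395_at) 12.28 and 12.57 at P0, 11.96 and 12.09 at P3, 10.32 and 10.82 at P7, 9.76 and 9.85 at P10, 9.65 and 9.92 at P14, and 10.24 and 10.08 at P21. P0, P3, P7 and P21 each stood apart from their neighbours, and P10 and P14 overlapped at the bottom. It was 3.62-fold lower at P7 (-1.85, adjusted p = 0.000103), 6.15-fold at P10 (-2.62 ± 0.17 SE, adjusted p = 6.52e-06), 6.23-fold at P14 (adjusted p = 4.89e-06) and 4.81-fold at P21 (adjusted p = 8.14e-06). Its main step was 2.74-fold, at P7 against P3 (-1.45, adjusted p = 0.000672), and the next one, -0.77 at P10 against P7 (adjusted p = 0.115), was called without P7 replicate 1 (-1.02, adjusted p = 0.0427) and with its probe sets averaged (-0.81, adjusted p = 0.0392). The other 4 Sfrp1 probe sets were lower too at P7, P10, P14 and P21. They disagreed on the last interval: at P21 against P0 they gave -1.71, -2.25, -3.17 and -4.02. Of these, 1428136_at (-2.25), 1416594_at (-3.17) and 1460187_at (-4.02) were lowest at P21. Only 1438620_x_at (-1.71) was lowest at P14, as was the probe set with the highest mean.

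Sfrp2, a close relative, had the largest fold of the 10 members at P21 and the widest spread between mice. The arrays (1448201_at) read 11.41 and 11.33 at P0, 11.02 and 10.95 at P3, 9.57 and 10.08 at P7, 10.21 and 8.43 at P10, 9.05 and 7.60 at P14, and 6.35 and 6.65 at P21. P10 overlapped both P7 and P14, while P21 lay below every other array. Differences from P0 were -2.05 ± 0.54 (SE) at P10 (4.14-fold lower, adjusted p = 0.016), -3.04 at P14 (8.25-fold, adjusted p = 0.00171) and -4.87 at P21 (29.2-fold, adjusted p = 7.08e-05). The P10 call was lost without either P0 array (-2.01 and -2.09, adjusted p 0.0781 and 0.0679) or without P10 replicate 2 (-1.16, adjusted p = 0.116). The differences at P7 against P0 (-1.54, adjusted p = 0.0811) and at P21 against P14 (-1.83, adjusted p = 0.0942) were not called with all arrays, but the first was called without either P10 array (adjusted p = 0.0273) or either P14 array (adjusted p = 0.0481), and the second without P14 replicate 2 (-2.55, adjusted p = 0.0393). The array holds 1 probe set for Sfrp2, so its values have no check from a second one.

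Frzb, the third Frizzled-related protein and known from cartilage, went the other way. Its arrays (1416658_at) read 9.13 and 9.48 at P0, 9.86 and 9.45 at P3, 10.38 and 10.75 at P7, 10.49 and 10.73 at P10, 10.29 and 10.60 at P14, and 10.24 and 9.43 at P21. P7, P10 and P14 overlapped each other and lay above all arrays of P0, P3 and P21, which formed an overlapping lower set. It was 2.39-fold higher at P7 (1.26 ± 0.26 SE, adjusted p = 0.00913), 2.47-fold at P10 (1.30, adjusted p = 0.00414) and 2.20-fold at P14 (1.14, adjusted p = 0.00756). At P21 the difference from P0 was 0.53 (adjusted p = 0.136).

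The second Frzb probe set, 1448424_at, gave larger differences at P7 (1.97) and P10 (1.95) and stood at -0.51 at P21, where adjusted p was 0.105. That probe set was also 3.49-fold lower at P21 against P14 (-1.80, adjusted p = 0.00901). With the first probe set, the P7 call was lost without P0 replicate 1 or P7 replicate 2 (1.08 each, adjusted p 0.079 and 0.0589) and the P14 call without P0 replicate 1 (0.96, adjusted p = 0.0653) or P14 replicate 2 (0.98, adjusted p = 0.0608). Its call at P7 against P3 (1.88-fold, adjusted p = 0.0425) was lost without any 1 array of P0, P3, P7, P10 or P14 (0.71 to 1.12, adjusted p 0.0526 to 0.212). Without P21 replicate 2 the P21 difference was 0.94 (adjusted p = 0.0156).

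Dkk3, a divergent member of the Dickkopf family, was lower from P7 on. The arrays (1448669_at) read 11.06 and 11.26 at P0, 11.50 and 11.47 at P3, 9.89 and 10.51 at P7, 9.87 and 9.90 at P10, 10.22 and 9.97 at P14, and 10.35 and 10.71 at P21. P3 stood above P0 and both above all later arrays. It was 2.44-fold lower at P7 against P3 (-1.29 ± 0.19 SE, adjusted p = 0.00222) and, against P0, 1.95-fold lower at P7 (adjusted p = 0.00805), 2.42-fold at P10 (-1.28, adjusted p = 0.000883), 2.09-fold at P14 (adjusted p = 0.00214) and 1.55-fold at P21 (-0.63, adjusted p = 0.0255). The changes at P14 against P10 (0.21, adjusted p = 0.879) and at P21 against P14 (0.43, adjusted p = 0.233) were not called. The second probe set, 1417312_at, stood at -1.23 at P10 and -1.23 at P21 (adjusted p = 0.000335). The P7 call was lost without P0 replicate 2 (-0.86, adjusted p = 0.0682) or P7 replicate 1 (-0.65, adjusted p = 0.0648), and the P21 call without either P0 array (-0.73 and -0.53, adjusted p 0.0536 and 0.134) or P21 replicate 1 (-0.45, adjusted p = 0.159).

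**Figure D3:**
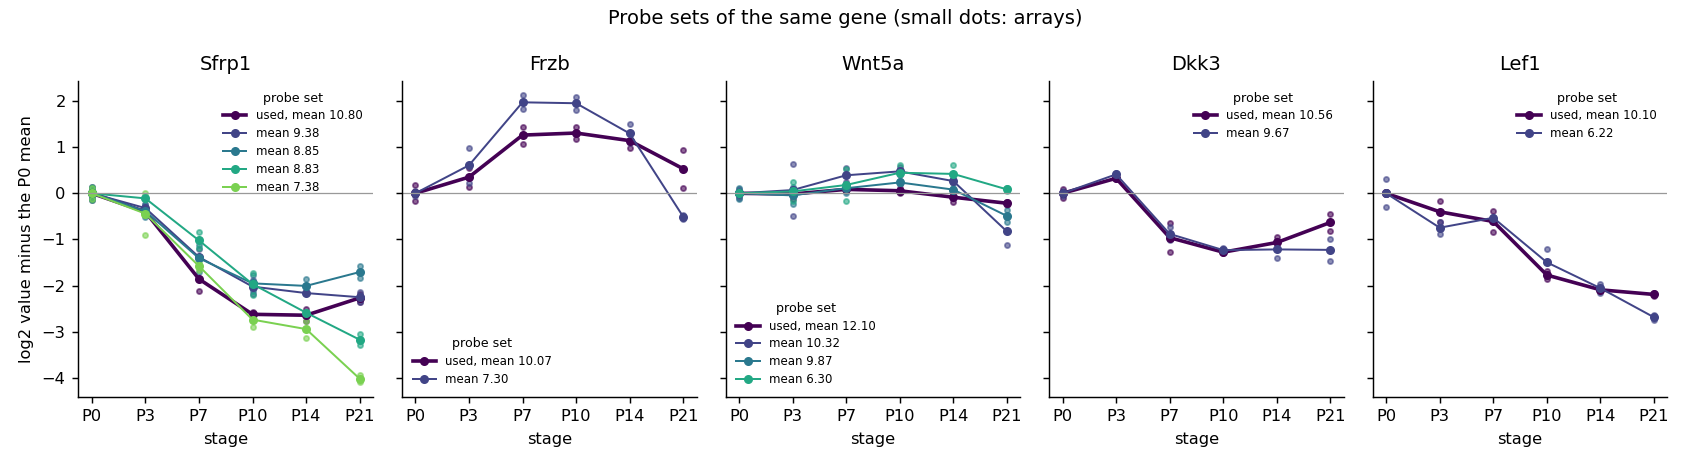
Log2 value minus the P0 mean (y axis) by stage (x axis) for each probe set of 5 members, with the probe set used drawn thick, lines through stage means and small dots for arrays. All 5 Sfrp1 sets and both Lef1 sets end below 0, while the 2 Frzb sets and the 4 Wnt5a sets part at P21.

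Wif1, which holds Wnts in the extracellular space, had a midcourse rise and a late fall. Its arrays (1425425_a_at, its only probe set) read 10.23 and 10.51 at P0, 10.43 and 10.38 at P3, 11.11 and 10.85 at P7, 11.13 and 11.01 at P10, 11.13 and 10.35 at P14, and 9.64 and 9.57 at P21. The P21 arrays lay below all others, and of the 2 P14 mice 1 lay with P7 and P10 and the other with P0 and P3. It was 1.62-fold higher at P10 against P0 (0.70 ± 0.21 SE, adjusted p = 0.0326), 1.70-fold lower at P21 against P0 (-0.76, adjusted p = 0.016) and 2.20-fold lower at P21 against P14 (-1.13, adjusted p = 0.0259).

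These Wif1 calls did not hold when single arrays were left out, which leaves 1 mouse at a stage. The P10 call was lost without any 1 of the P0 and P10 arrays (0.56 to 0.84, adjusted p 0.0571 to 0.188). The P21 call against P0 was lost without P0 replicate 2 (-0.62, adjusted p = 0.105) or P21 replicate 2 (-0.73, adjusted p = 0.0682), and that against P14 without P14 replicate 1 (-0.74, adjusted p = 0.163), P21 replicate 1 (-1.17, adjusted p = 0.077) or P21 replicate 2 (-1.10, adjusted p = 0.0615). The P14 difference from P0 was 0.37 with both P14 mice (adjusted p = 0.233) 0.76 without P14 replicate 2 (adjusted p = 0.00923) and -0.02 without P14 replicate 1 (adjusted p = 0.952). The P7 difference of 0.61 (adjusted p = 0.0839) was called without either P14 array (adjusted p = 0.0139). P14 replicate 1, where Wif1 was the higher, also had a dividing cell sum of 6281 and an erythroid sum of 5553, against 1747 and 1927 in P14 replicate 2.

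The P21 values of all members stood on the arrays with the largest Actb 3' minus 5' difference. With that difference as a covariate, 2 of the 8 calls at P21 against P0 were kept, those of Sfrp1 and Lef1. The Wif1 difference then became 0.49 (adjusted p = 0.792), that of Frzb -0.80 (adjusted p = 0.719), and that of Sfrp2 -2.51 (adjusted p = 0.562). Lgr5 (-1.72, adjusted p = 0.0887), Fzd1 (-1.30, adjusted p = 0.176) and Axin2 (-1.0, adjusted p = 0.364) kept their direction and lost the call, and Dkk3 went to -0.03 (adjusted p = 0.99). At P21 the covariate and the stage cannot be told apart. With the covariate the Frzb call at P14 against P0, the one higher member there, was lost too (0.81, adjusted p = 0.1), as was the Lef1 call at P7 against P0, whose -0.56 (adjusted p = 0.0474) fell short of the fold. The counts at P10 against P0 did not change with the covariate (7 lower and 2 higher) or without both P21 arrays (7 lower and 2 higher).

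Over the 12 arrays, which share 6 stages, Lef1 and Fzd1 moved most alike of all member pairs, with a Pearson r of 0.974, followed by Sfrp1 and Lgr5 at 0.968 and Axin2 and Lgr5 at 0.942. Frzb ran opposite to Lgr5 at -0.799 and to Dkk3 at -0.792. Across all genes, the profile nearest to Sfrp1 was that of Sema3a, a secreted axon repellent, with r of 0.995, followed by Bhlhb9 and Snhg12 at 0.992 each. For Fzd1 the nearest were Hs2st1 at 0.992 and Sdc1 and Prkcq at 0.991, and for Lef1 Rasl11b and Efs at 0.990 and Prkcq at 0.988, so that Prkcq was near to both. For Lgr5 they were Anp32a, Wdr78 and Rbms2 (0.980 to 0.986), for Axin2 Tmem132d, Crocc and Acvr2b (0.967 to 0.978), for Dkk3 Dynlrb2, Enkur and H2-DMa (0.972 to 0.979), and for Sfrp2 Rars, Zfp790 and Eif3l (0.973 to 0.986). Likeness was weaker for Wif1 (Cbfb, Arpc2 and Itgb1, 0.942 to 0.964), Frzb (Rmdn2, Myrfl and Saa1, 0.937 to 0.952) and Wnt5a (Ccdc59, Cep44 and Aptx, 0.864 to 0.888). These correlations describe shared stage profiles.

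Of 97 other Wnt pathway genes listed, 95 had a probe set with 1 symbol. At P10 against P0, 29 of the 95 were lower and 11 higher, where 10.1% of all probe sets were lower and 9.24% higher. At P21 against P0, 34 were lower and 14 higher, where the shares of all probe sets were 14.9% and 12.4%. Their median difference was -0.21 at P10 and -0.28 at P21. At P3 the counts were 6 lower and 1 higher, at P7 19 and 12, and at P14 31 and 12. The shares of all probe sets were 2.8% and 0.981%, 5.68% and 5.44%, and 11.3% and 10.2%. Between successive stages the counts were 9 lower and 13 higher at P7 against P3, and 0 and 1 at P10 against P7. They were 0 and 0 at P14 against P10, and 2 and 0 at P21 against P14. The shares of all probe sets called in these steps were 3.98% and 6%, 0.127% and 0.104%, 0% and 0%, and 1.73% and 0.722%. In the same steps 42, 22, 11 and 24 genes had an unadjusted p under 0.05 in limma. The share of all probe sets at that looser rule was not counted. Single arrays decided the smallest counts: without P0 replicate 1, 1 gene was called at P3 against P0, without any 1 of the P0 or P10 arrays or P7 replicate 2, 0 were called at P10 against P7, and without P14 replicate 1, 0 were called at P21 against P14. For 20 genes named from P10 against P0, the probe set used was checked there against 34 others of the same genes. Of these, 17 were called in the same direction, 0 in the opposite one and 17 not at all. For 22 genes named from P21 against P0 there were 33 others, of which 14 were called in the same direction there, 0 in the opposite one and 19 not at all.

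Of 12 other secreted or surface inhibitors, 4 were higher and 0 lower at P10 against P0 (all probe sets 9.24% and 10.1%), and 8 were not called. Sost, which encodes sclerostin, an osteocyte product that blocks the Wnt co-receptor, read 9.75 and 9.78 at P10 against 5.47 and 5.88 at P0, 17-fold higher (adjusted p = 4.43e-06). Sfrp4 read 10.45 and 10.06 against 6.79 and 7.02, 10.2-fold higher (adjusted p = 9.75e-07). Dkk1, a secreted blocker of the same co-receptor, read 9.07 and 9.23 against 5.83 and 5.83, 9.99-fold higher (adjusted p = 6.22e-05). All P10 arrays of these genes lay above all P0 arrays. Sfrp5 was 4.84-fold higher (adjusted p = 9.27e-05). At P21 these 4 stayed higher, by 27.4-fold for Sost, 11.2-fold for Sfrp4, 6.59-fold for Dkk1 and 4.44-fold for Sfrp5. In all, 5 of the 12 were higher at P21 and 2 lower, where 12.4% of all probe sets were higher and 14.9% lower. The lower ones were Sostdc1 (1.66-fold, adjusted p = 0.00422) and Apcdd1 (1.95-fold, adjusted p = 4.05e-05). Second probe sets gave 3.08 for Dkk1 at P10 (adjusted p = 0.000234) but 0.55 for Sost and 0.40 for Sfrp5, neither called.

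**Figure D4:**
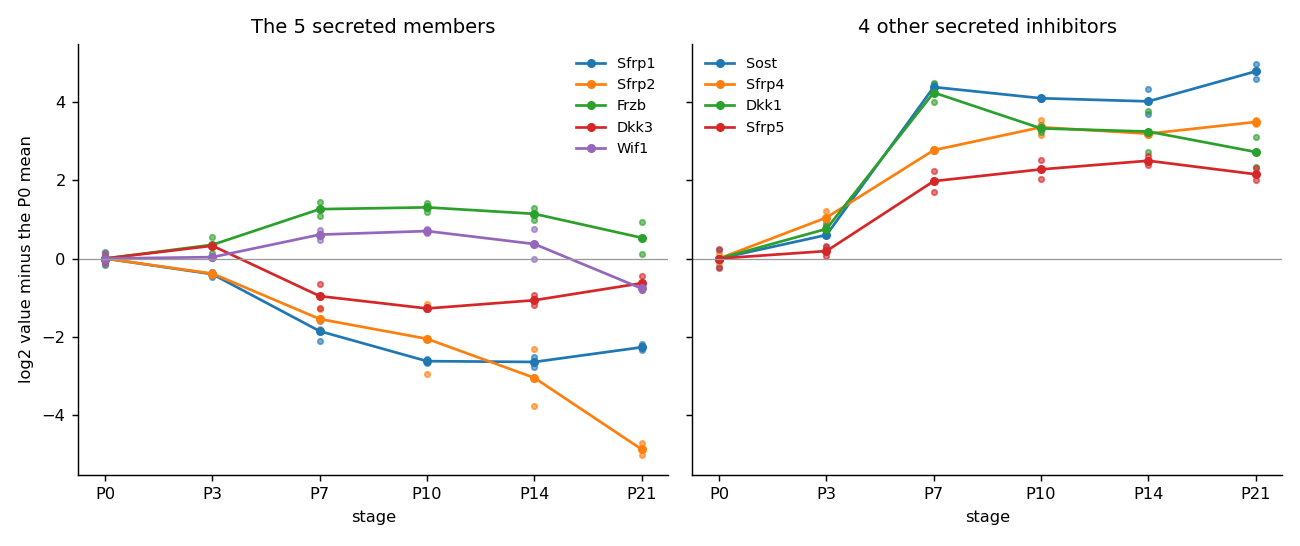
Log2 value minus the P0 mean (y axis) by stage (x axis) for the 5 secreted members (left) and 4 other secreted inhibitors (right), with lines through stage means and small dots for arrays. At P10, Sost, Sfrp4, Dkk1 and Sfrp5 stand 2.28 to 4.09 above P0, while Sfrp1 and Sfrp2 stand at -2.62 and -2.05.

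All 6 measured osteoblast and osteocyte markers were higher at P10 against P0, none lay in the lowest 25% of values on both arrays of a stage, and their sum was 40266 to 41306 at P10 against 779 to 1010 at P0. At P21 all 6 were higher than at P0 and the sum was 23493 to 27712. Fibroblast and mesenchyme markers (11 measured) summed to 110699 to 115270 at P10 and 85626 to 88156 at P0, with 2 higher and 3 lower. From P0 to P10 the mean of Otos went from 5.89 to 14.3 and that of Coch from 12.21 to 13.97. Those of Postn (12.23 to 11.2), Pou3f4 (12.01 to 11.32) and Tbx18 (12.79 to 11.32) went down, so the sum does not stand for the whole list. At P21 against P0, 2 of these markers were higher and 6 lower. Chondrocyte markers (8 measured) summed to 36065 to 37526 at P10 against 37483 to 38087 at P0, with 1 higher and 2 lower, and to 15365 to 16173 at P21 against 33859 to 34065 at P14, with 0 higher and 3 lower. Of all probe sets, 9.24% were higher and 10.1% lower at P10 against P0, and 12.4% and 14.9% at P21 against P0. At P21 against P14 the shares were 0.722% higher and 1.73% lower. The part of the cells of these marker lists in the levels of Sost, Dkk1, Sfrp4, Frzb or Wif1 was not tested.

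Among other ligands 3 of 18 were higher and 3 lower at P10 against P0, where 9.24% of all probe sets were higher and 10.1% lower. Wnt16 was 5.17-fold higher (8.02 and 7.92 at P10 against 5.70 and 5.50 at P0, adjusted p = 9.65e-06) and Wnt4 was 3.31-fold higher (10.57 and 10.39 against 8.66 and 8.85, adjusted p = 0.00017). Another Wnt4 probe set gave 1.6 and was called. Wnt7a was 1.96-fold lower (adjusted p = 0.0226), though its other probe sets gave -0.04 and -0.16, neither called. Wnt3 lay in the lowest 25% of values at both stages, so its fold is not given. At P21 Wnt5b was 1.59-fold lower (adjusted p = 0.0301) and Porcn, which attaches the lipid to Wnts, 1.82-fold higher (adjusted p = 0.000143). The other Wnt5b probe set gave -0.27 and was not called.

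Of 14 other receptors, 6 were lower and 1 higher at P10 against P0 (all probe sets 10.1% and 9.24%), and the remaining 7 were not called. Fzd2 read 9.59 and 9.72 at P10 against 11.61 and 11.45 at P0, 3.67-fold lower (adjusted p = 1.28e-05), and its other 2 probe sets were lower too. The Wnt5a co-receptors Ror1 and Ror2 were 3.46-fold (adjusted p = 6.18e-05) and 2.46-fold (adjusted p = 0.000438) lower, beside a Wnt5a level that was not called. Other probe sets of Ror1 (-0.29 and -0.04) and Ror2 (-0.42) were not called at P10. Fzd5 was the exception, 3.47-fold higher at P10 (9.06 and 9.38 against 7.47 and 7.38, adjusted p = 5.34e-05). At P21 Fzd7 was 1.83-fold lower (adjusted p = 0.000612), though its other probe set gave -0.35 and was not called.

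Of 8 genes in the R-spondin module around Lgr5, 1 was higher and 2 lower at P10, where 9.24% of all probe sets were higher and 10.1% lower. Rspo1 was 3.23-fold higher (adjusted p = 0.00015), while Rspo2 was 3.12-fold lower (adjusted p = 0.000255) and Rnf43, a ligase that removes Frizzled, 2.58-fold lower (adjusted p = 0.00169). On the probe sets used, the 2 R-spondins, ligands of Lgr5, thus moved in opposite directions. A second Rspo2 probe set gave 0.25 at P10 and was not called.

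Inside the cell, 4 of 15 transducers were lower and 1 higher at P10, where 10.1% of all probe sets were lower and 9.24% higher. Among the lower were Dact1 (2.98-fold, adjusted p = 0.00036), Dvl2 (2.03-fold, adjusted p = 0.000493) and Btrc (1.66-fold, adjusted p = 0.000428). Dvl1 was the higher (2.03-fold, adjusted p = 0.000231), and its other probe set (0.93) was called too. The other Dvl2 probe set gave -0.16 and was not called. Of other Btrc probe sets, that at -0.62 was called and those at -0.09, -0.23 and -0.04 were not. Dvl1 and Dvl2 are Dishevelled proteins that relay the receptor signal. At P21 Nkd1, a Dishevelled-binding inhibitor, was 2.56-fold lower (adjusted p = 0.000307). Of other Nkd1 probe sets, that at -0.79 was called and those at -0.08 and -0.18 were not.

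Of 11 nuclear partners other than Lef1, 6 were lower and 0 higher at P10 (all probe sets 10.1% and 9.24%), with the same counts at P21 (all probe sets 14.9% and 12.4%). Tle2, not called at either stage, differed by 0.56 and 0.51 on the log2 scale. Tcf7l1 and Tcf7l2, relatives of Lef1, were 2.60-fold (adjusted p = 4.28e-05) and 2.29-fold (adjusted p = 0.000398) lower at P10. The corepressor Tle4 was 1.81-fold lower (adjusted p = 0.000378) and the coactivator Pygo2 1.65-fold lower (adjusted p = 0.000748). At P21 Ctnnbip1, an inhibitor of beta-catenin, was 2.69-fold lower (adjusted p = 1.38e-05), and Tle1 and Tle3 were 2.17-fold (adjusted p = 2.14e-05) and 2.08-fold (adjusted p = 0.000356) lower. The other Tle1 probe set gave -0.53 and was not called. Of other Tle3 probe sets, that at -1.01 was called and those at -0.48 and -0.24 were not.

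Of 5 other targets measured, 3 were lower and 1 higher at P10, where 10.1% of all probe sets were lower and 9.24% higher. Sp5 read 5.93 and 6.21 at P10 against 8.31 and 8.81 at P0, 5.62-fold lower (adjusted p = 1.97e-05), and Ccnd1, which drives entry into the cell cycle, read 10.12 and 10.37 against 12.02 and 11.87, 3.25-fold lower (adjusted p = 2.79e-05). Its other 2 probe sets were lower as well. Myc was 2.90-fold lower (adjusted p = 0.000142) and Cd44 1.64-fold higher (adjusted p = 0.0208). At P21, 4 of the 5 were lower (all probe sets 14.9%), with Tnfrsf19 at 2.27-fold (adjusted p = 5.63e-05) as the addition. Of its other probe sets 1 gave -0.61 and was called and 1 gave -0.48 and was not. Myc, Ccnd1 and Cd44 answer to many other signals.

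Planar polarity genes, which orient cells in a sheet, had 5 of 10 lower and 0 higher at P10 (all probe sets 10.1% and 9.24%). Celsr1 was 7.94-fold lower (7.13 and 7.64 at P10 against 10.25 and 10.50 at P0, adjusted p = 4.11e-05), Ptk7 3.42-fold (adjusted p = 6.41e-06), Vangl2 2.54-fold (adjusted p = 0.000228) and Daam1 1.65-fold (adjusted p = 0.00621). Other Vangl2 probe sets were called lower (-0.87 and -1.04), while those of Daam1 (-0.5 and -0.2) were not called. At P21, 5 of the 10 were lower and 1 higher, where 14.9% of all probe sets were lower and 12.4% higher. Prickle1 was 2.13-fold lower there (adjusted p = 0.000268), though its other probe sets gave 0.16 and 0.22, neither called. The higher gene was Celsr2 (1.61-fold, adjusted p = 0.000975).

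**Figure D5:**
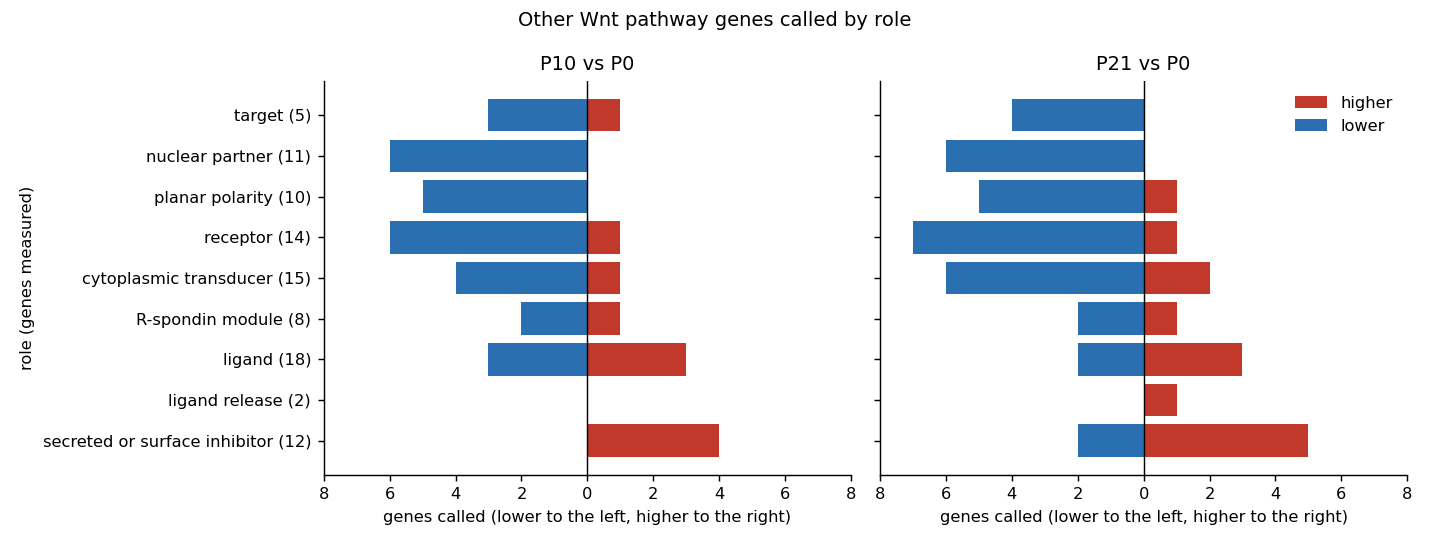
Number of other Wnt pathway genes called lower (blue, to the left) and higher (red, to the right) in each role (rows, with the number measured) at P10 against P0 (left) and P21 against P0 (right). Nuclear partners (6 of 11 at both stages) have calls to the left alone, and secreted inhibitors at P10 (4 of 12) to the right alone.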

How the data were processed

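Total RNA of the modiolus was measured on 12 Affymetrix mouse expression arrays, 2 mice at each of 6 stages. The table deposited by the authors holds log2 values per probe set, made by RMA (background correction, quantile normalisation and summary over probes) in Affymetrix Expression Console. Tool versions are not given in the sources used here. The values were used as deposited, the table held 0 columns of other samples, and quantile normalisation hides any change shared by most genes. Of 45101 probe sets, 64 controls were left out and 45037 tested. A single gene symbol is given for 34945 of these, several for 932 and none for 9160.

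Every comparison came from 1 limma fit (version 3.58.1, R 4.3.3, lmFit then eBayes) of the 6 stage means to the 12 arrays, with 6 residual and 4.03 prior degrees of freedom. Benjamini-Hochberg adjustment ran over all tested probe sets, and a fold over 1.5 was also required, the fold limit of the study. With 2 mice per stage, precision is limited by the number of arrays. On simulated P10 and P0 arrays over 45037 probe sets, the test recovered 11 of 67 changes of 1.5-fold, 53 of 67 of 2-fold and 64 of 66 of 4-fold, with 11 false calls. Only these probe sets were changed, where the data had 9.24% called higher and 10.1% lower at P10 against P0. The adjustment was thus stricter in the simulation, and a 1.5-fold change had to measure above 1.5-fold. These recoveries are therefore not the sensitivity of the comparisons reported here.

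The members and gene lists were chosen with earlier results of these data known. Named are all members, up to 4 other Wnt genes per role with the largest fold among those called at P10 or P21 against P0, and the 3 genes most correlated with each member. As alternatives, the fit was given a block for replicate number, an intensity trend or array weights, dim probe sets were dropped, probe sets of a gene were averaged, each comparison was fitted on its own 4 arrays, the methods' t-test was run and each array was left out in turn. Listed genes without a probe set of their own (Kremen2 and Tcf7) were not used here. Promoter windows were matched by symbol to a RefSeq table of build GRCm38.p6.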

Additional observations from a re-analysis of the deposited data

How the results depend on the processing

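Of 90 pairs of a member and a comparison, 39 were called, and 8 more were called only under an alternative. Of 888 alternative values of the 39 called pairs, 767 kept direction and call, 120 lost the call and 1 changed sign. Leaving out 1 array at a time gave 0 to 2 members called at P3 against P0, 4 to 7 at P7, 7 to 9 at P10, 7 to 8 at P14 and 6 to 8 at P21. For successive stages it gave 2 to 4 at P7 against P3, 0 to 2 at P10 against P7, 0 at P14 against P10 and 0 to 2 at P21 against P14. For the other Wnt genes the ranges were 1 to 8 at P3, 21 to 36 at P7, 34 to 42 at P10, 38 to 43 at P14 and 43 to 51 at P21 against P0, then 18 to 23, 0 to 3, 0 and 0 to 4 for the 4 successive steps. The F-test called 9 members throughout. Without P14 replicate 1, the Wif1 difference at P14 against P0 was -0.02, and without P14 replicate 2 it was 0.76.

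The methods' t-test called 0 members and 0 other genes in every comparison after Benjamini-Hochberg adjustment. Unadjusted, it called 2 members at P7 against P3, 0 members at P21 against P14 and 3 other genes at P10 against P7. With the 4 arrays alone, 0 members were called at P3 against P0, P10 against P7 and P21 against P14, and 0 other genes in the same 3 comparisons. With a gene's probe sets averaged, 0 members were called at P3 against P0, 2 at P10 against P7 and 2 at P21 against P14, with 3 and 1 other genes in the last 2. With array weights these last 2 comparisons gave 3 and 1 other genes, and 0 members at P21 against P14. The intensity trend gave 2 other genes at P10 against P7, and leaving out the dimmer probe sets gave 3 there and 4 at P21 against P14. The cause of these changes was not tested. The Actb covariate and leaving out both P21 arrays were chosen after seeing the data. With the covariate, 2 members and 4 other genes were called at P21 against P0, and 0 and 0 at P21 against P14. The P21 differences from P0 then became 0.49 for Wif1 and -0.80 for Frzb. Without both P21 arrays, counts at P3 to P14 stayed within 1.5 times.

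The labels do not say whether a replicate number pairs mice across stages. Replicate 1 minus 2 differences correlated at -0.125 to 0.317 between stages, over 0.1 in 6 of 15 pairs, which cannot settle it. With the number as a block, 3 members were called at P7 against P3 (Frzb, 0.91, adjusted p = 0.0553, was lost), and no other member call changed.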
